A study of Homo sapiens with 16 samples.

Results

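The mitotic kinases, spindle kinesins and cytokinesis genes examined here are a set of 42 human genes chosen by function, of which 41 were measured among 14113 genes tested. A probe set, the group of short oligonucleotides that reports a transcript on the array, counted for a gene only when it was annotated to that gene alone. This left 77 probe sets of the 54675 on the array. CIT, the citron kinase of the cytokinetic midbody, had no probe set annotated to it alone, so its expression was not analysed here, and it enters only the count of promoter motifs. The genes were divided here by role into 12 kinases, cyclins and chromosomal passenger subunits, 12 kinesins, 7 spindle proteins, 5 cytokinesis proteins (4 of them measured), 4 anaphase regulators and 2 chromosome proteins.

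The study grew H1703, H1437, H661, H460, H358, H23, A549 and A427, 8 established human lung cancer lines, in 3D and in 2D at similar density and in similar medium. The 3D cells lay on a thin bed of Matrigel, a basement membrane extract from a mouse tumour, under medium with dissolved Matrigel, and the 2D cells, labelled untreated, on culture plastic. There was 1 array per line and culture, 8 arrays in 3D and 8 in 2D, so each line is a pair and no difference within a line has a replicate check. The lines were labelled only as lung cancer cells, and each value is a log2 ratio of a probe set to a reference of its own, so a level of a gene can be set against the same gene on another array and against no other gene. A microarray gives no read depth, and the number of arrays limits the precision.

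Mitosis is driven by cyclin-dependent kinase 1 with cyclins A and B, and by the Polo-like, Aurora and NEK kinases. Kinesins, motors that walk along microtubules or take them apart at their ends, build the spindle and move chromosomes on it. The anaphase-promoting complex, a ubiquitin ligase, then releases the sister chromatids, and a contractile ring at the cell's middle completes cytokinesis. The mRNAs of these genes accumulate in late S phase, G2 and mitosis, and many of their promoters hold a cell cycle genes homology region (CHR), bound by the MuvB complexes, next to CCAAT boxes, bound by NF-Y. Because of this timing their mRNAs are widely used as markers of proliferation in tumours.

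The promoters below are shown because 21 of the genes moved in the same direction and most of the set's promoters hold these elements. They are the 160 bases before the transcription start, taken from RefSeq on the GRCh38.p14 build and written 5′ to 3′ on the gene's strand. Capitals mark the searched letters, where runs of 6 are CHR matches (TTTGAA on either strand, or TTCGAA) and runs of 5 are CCAAT boxes (CCAAT on either strand). INCENP, KIF4A, CKAP5, PRC1 and CDC20 had the smallest p among genes with both motifs, in each role class with a call. PLK1, with the lowest mean difference, AURKB, which has no CHR match, and CCNB2, with the smallest difference, were added after their values were seen.
INCENP (chr11:62123851-62124010, strand +): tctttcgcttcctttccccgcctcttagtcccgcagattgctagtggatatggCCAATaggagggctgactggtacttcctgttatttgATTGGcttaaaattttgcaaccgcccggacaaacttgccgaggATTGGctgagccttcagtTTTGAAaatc
PLK1 (chr16:23678729-23678888, strand +): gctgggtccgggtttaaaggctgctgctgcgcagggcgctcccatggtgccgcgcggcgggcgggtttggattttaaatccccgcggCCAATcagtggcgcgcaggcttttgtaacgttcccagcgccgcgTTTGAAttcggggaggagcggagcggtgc
AURKB (chr17:8210226-8210385, strand -): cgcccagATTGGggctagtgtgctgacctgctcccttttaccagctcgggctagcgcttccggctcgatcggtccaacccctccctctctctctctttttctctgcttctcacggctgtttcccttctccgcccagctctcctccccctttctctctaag
CCNB2 (chr15:59104986-59105145, strand +): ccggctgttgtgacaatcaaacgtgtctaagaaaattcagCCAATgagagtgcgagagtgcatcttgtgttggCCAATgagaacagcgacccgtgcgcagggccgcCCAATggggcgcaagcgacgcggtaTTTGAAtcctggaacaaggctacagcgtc
KIF4A (chrX:70289944-70290103, strand +): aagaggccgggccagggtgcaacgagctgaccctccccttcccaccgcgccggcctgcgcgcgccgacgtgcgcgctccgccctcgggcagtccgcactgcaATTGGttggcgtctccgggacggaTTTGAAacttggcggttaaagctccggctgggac
CKAP5 (chr11:46846281-46846440, strand -): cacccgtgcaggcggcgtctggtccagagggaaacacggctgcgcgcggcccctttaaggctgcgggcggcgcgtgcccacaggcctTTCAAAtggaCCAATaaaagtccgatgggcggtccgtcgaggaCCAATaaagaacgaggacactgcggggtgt
PRC1 (chr15:90994536-90994695, strand -): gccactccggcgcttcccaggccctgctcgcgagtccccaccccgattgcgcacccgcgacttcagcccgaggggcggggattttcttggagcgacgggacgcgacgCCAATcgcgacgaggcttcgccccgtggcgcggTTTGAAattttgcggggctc
CDC20 (chr1:43358821-43358980, strand +): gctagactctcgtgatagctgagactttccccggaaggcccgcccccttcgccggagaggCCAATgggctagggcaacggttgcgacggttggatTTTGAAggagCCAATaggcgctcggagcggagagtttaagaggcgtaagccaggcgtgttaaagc

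The INCENP stretch holds 3 CCAAT boxes and a CHR match 10 bases before the start, and that of PLK1 a CCAAT box at 73 and a CHR match at 29 bases. CCNB2, with CCAAT boxes at 120, 87 and 54 bases and a CHR match at 29, holds as many matches as INCENP. RefSeq promoter windows, from 250 bases before to 50 after a start, matched 37 of the 42 genes by symbol, in 44 windows. A CHR match lay in 32 of the 44 windows (72.7%), against 16.4% of all 35116 promoter windows and 12.2% of the windows of tested genes. A CCAAT box lay in 36 (81.8%), against 34.6% of all, and both motifs lay in 27 (61.4%), against 6.38% of all. A CHR match between 10 and 40 bases before the start, an interval chosen after the positions were seen, was present in 34.1% of these windows and 1.75% of all. RACGAP1, AURKA, BIRC5, UBE2C and TPX2 were not among the sequences used here.

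**Figure D1:**
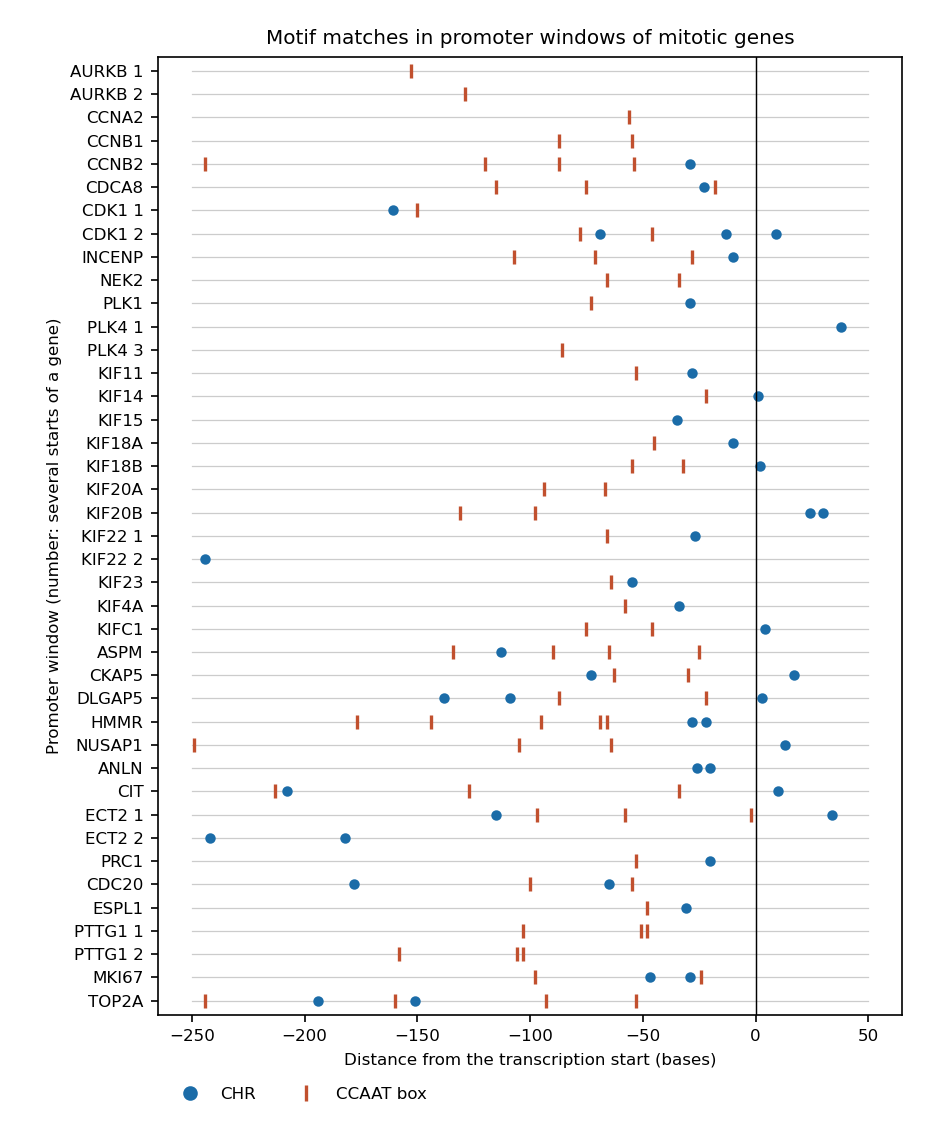
Matches of the CHR (dots) and the CCAAT box (ticks) by distance in bases from the transcription start, for the 41 windows that hold a match; 3 more windows hold none. Matches of both motifs gather upstream of the start, with the CHR often closest to it.

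Averaged over the 8 lines, all 41 mitotic genes had a 3D minus 2D difference below 0, against 51.4% of all genes tested. In A427, however, only 16 of the 41 were lower in 3D, where 49.8% of all genes were. Of the 41 genes 21 fell while 0 rose (limma, Benjamini-Hochberg adjusted p under 0.05 over 14113 genes). Over all genes tested 4.12% were called lower and 1.97% higher, 6.09% together. In 8 of 8 lines 14 of the 41 genes (34.1%) were lower in 3D, against 4.42% of all genes tested. The median difference over the 41 genes was -0.53 (log2), against -0.01 over all genes tested, and single genes ranged from -0.83 to -0.10. Of the 20 genes outside the calls, 13 had an adjusted p of 0.0501 to 0.0791, so the threshold runs through a dense run of values. With the level of the 18S rRNA control, which was also lower in 3D in 8 of 8 lines, as a covariate, 0 of the 41 genes and 0 of all genes tested were called by limma (15 and 1368 had an unadjusted p under 0.05). The median difference of the 41 genes in that fit was -0.44, with 40 below 0. In bulk RNA, fewer cells in G2 and mitosis and less of each mRNA per cell cannot be told apart.

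That count depends on which lines are included. The sign of the mean over lines did not change when any 1 line was left out, although A427 on its own had a median of 0.06. Leaving out both arrays of 1 line gave 32 genes called without A427 (4.83% of all genes tested called lower), 16 without H1437 (4.37%), 8 without A549 (1.69%) and 6 without H661 (1.29%). It gave 3 without H23 (0.971%), 2 without H358 (0.517%), 2 without H460 (0.361%) and 1 without H1703 (0.0921%). In each of these 8 fits all 41 differences stayed below 0, with medians of -0.62 to -0.45. An unadjusted p under 0.05 (limma) was found for 34 to 39 of the 41 genes, and for 2946 to 3639 of the 14113 genes tested. INCENP was called in 8 of 8 of these fits, AURKB in 7, and each other gene called with all lines in 1 to 4.

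**Figure D2:**
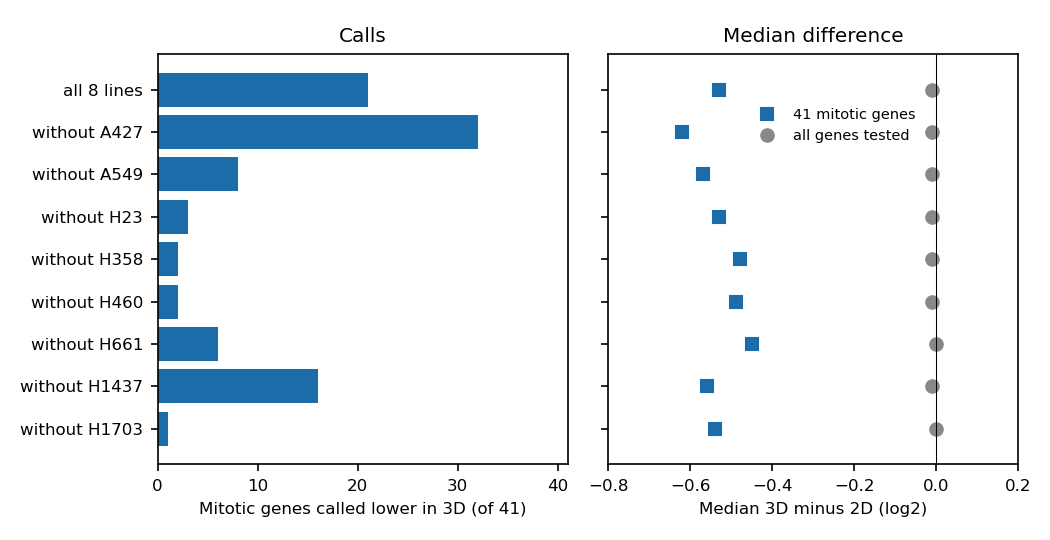
Left, bars give how many of the 41 mitotic genes were called lower in 3D with all 8 lines and without each line; right, squares give their median 3D minus 2D difference and dots that of all genes tested (log2). Calls run from 1 without H1703 to 32 without A427, while the median stays between -0.62 and -0.45.

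Of the 12 kinases, cyclins and passenger subunits, 7 fell and 0 rose, where 4.12% of all genes tested were called lower. The class median was -0.55. PLK1, the Polo-like kinase of mitotic entry and centrosome maturation, had log2 ratios of -1.47 to 0.26 in 3D (median -0.37), against -0.33 to 0.96 in 2D (median 0.48). The cultures overlapped, as they did for each of the 41 genes, with H358 lowest in 3D and H1437 lowest in 2D, and 7 of 8 lines were lower in 3D. The gene fell by 0.83 (SD 0.61, n = 8 lines; limma, adjusted p = 0.0344), from -1.62 in H358 to 0.21 in A427. PLK4, the related kinase that duplicates centrioles, stood at -0.26 ± 0.37 (adjusted p = 0.216).

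The chromosomal passenger complex, in which AURKB is the kinase and INCENP, BIRC5 (survivin) and CDCA8 (borealin) are its partners, was called in all 4 subunits. When the probe set with the highest mean stood for each gene, AURKB (-0.42) and BIRC5 (-0.21) were not called (limma, adjusted p = 0.0834 and 0.263). INCENP and CDCA8 were still called in that setting. AURKB had ratios of -1.58 to 0.25 in 3D (median -0.56), against -0.96 to 1.28 in 2D (median 0.26). Both lowest values were those of H1437, and 8 of 8 lines were lower in 3D. It fell by 0.80 (SD 0.38; limma, adjusted p = 0.0187), with -1.18 on a called probe set and -0.42 on the other, which was not called. INCENP, the scaffold, had -1.04 to 0.59 in 3D (median -0.39), against -0.22 to 1.10 in 2D (median 0.32), and A427 was highest in both cultures. It fell by 0.67 (SD 0.27), the smallest adjusted p of the 41 genes at 0.0172 (limma). BIRC5 fell by 0.57 (SD 0.32) and CDCA8 by 0.53 (SD 0.40). The 4 probe sets of BIRC5 lay between -0.80 and -0.21, and 3 of them were called.

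AURKA, the Aurora kinase of the spindle poles, had a mean of -0.40 ± 0.31 (limma, adjusted p = 0.0513). Its probe sets parted, with -0.59 and -0.54 on those called and -0.07 on the third. NEK2, a centrosomal kinase, fell by 0.62 (SD 0.48; adjusted p = 0.0411), with -0.67 on a called probe set and -0.57 on the other, which was not called. CDK1 itself had -0.94 to 0.54 in 3D (median -0.02), against -0.70 to 0.95 in 2D (median 0.05), and its difference of -0.32 ± 0.22 stayed just outside the calls (adjusted p = 0.0501). H23 had the lowest and H460 the highest CDK1 in both cultures.

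Among the cyclins, CCNA2 (cyclin A2) had -1.80 to 0.47 in 3D (median -0.52), against -1.12 to 1.88 in 2D (median 0.25). H1437 was lowest and H661 highest in both cultures. It fell by 0.63 (SD 0.50; limma, adjusted p = 0.0427), and both of its probe sets were called. CCNB1 (cyclin B1) stood at -0.49 ± 0.50 (adjusted p = 0.0791), with 0.46 in A427 and -1.07 in H460. CCNB2 (cyclin B2) had -0.44 to 0.77 in 3D (median 0.05), against -0.63 to 0.81 in 2D (median 0.14), a difference of -0.10 ± 0.21 (adjusted p = 0.511). That small mean joins probe sets of opposite sign. One was called lower at -0.49 in 7 of 8 lines (adjusted p = 0.0398 over 27631 probe sets), and the other stood at 0.29 and was not called.

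**Figure D3:**
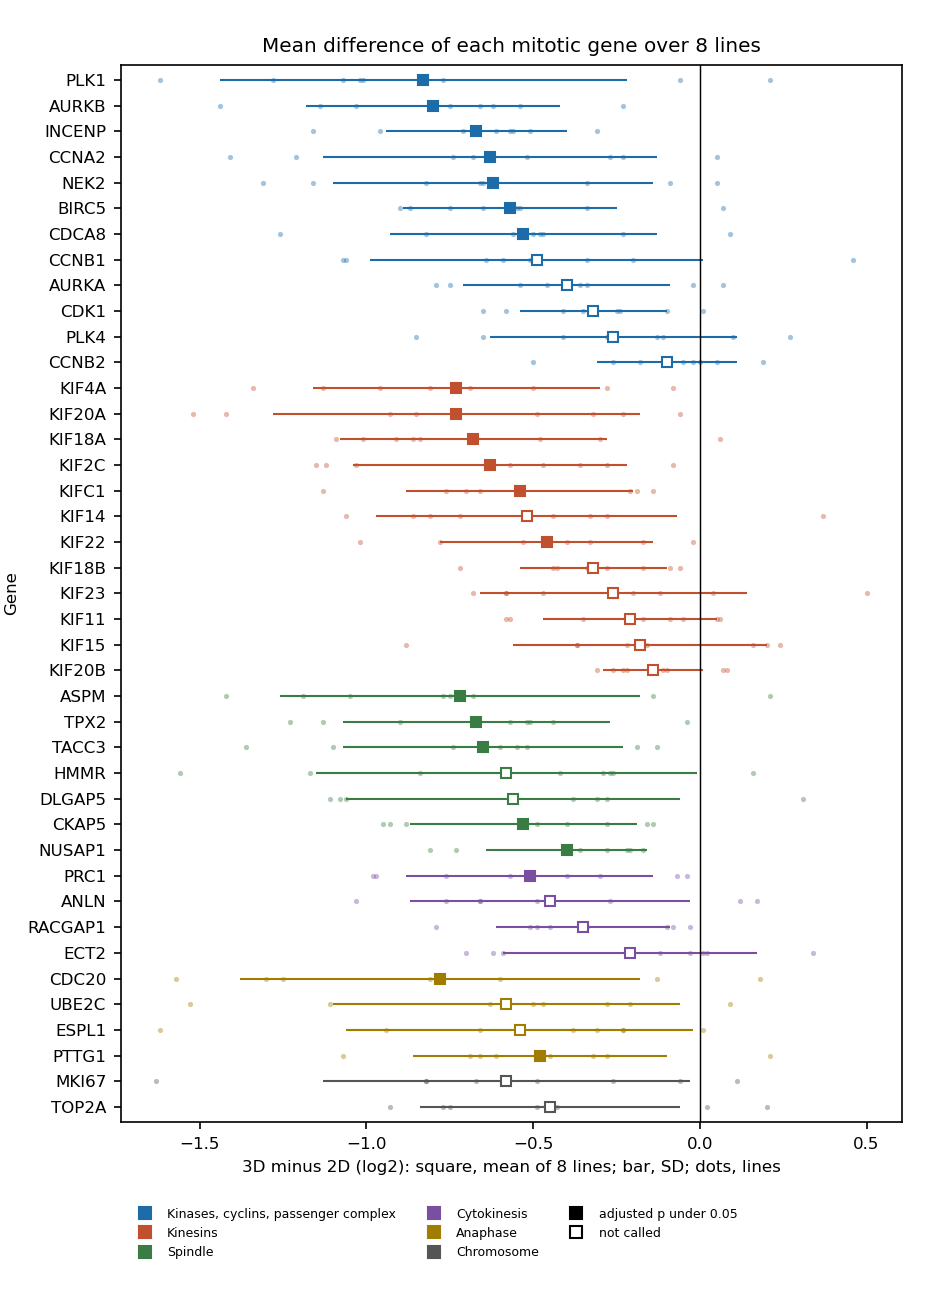
Mean 3D minus 2D difference of each of the 41 genes (squares, log2), with the SD over 8 lines (bars) and the single lines (dots); filled squares passed the test. All means lie left of 0, from -0.83 for PLK1 to -0.10 for CCNB2.

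Of the 12 kinesins 6 fell and 0 rose (4.12% of all genes tested were called lower), with a median of -0.49. KIF4A, a chromokinesin that also trims the midzone of the anaphase spindle, had -1.24 to 0.64 in 3D (median -0.26), against -0.61 to 1.45 in 2D (median 0.27). H1703 was highest in both cultures, and 8 of 8 lines were lower in 3D. It fell by 0.73 (SD 0.43; limma, adjusted p = 0.0232). The genome holds a nearly identical retrocopy, KIF4B, and whether the probe set also reads it was not tested.

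KIF20A, the motor that carries the passenger complex to the midzone, had -1.40 to 0.69 in 3D (median -0.50), against -1.09 to 0.93 in 2D (median 0.31). H1437 was lowest and H1703 highest in both. It fell by 0.73 (SD 0.55; adjusted p = 0.0360), and its largest falls were -1.52 in H661 and -1.42 in H358. Its relative KIF20B stood at -0.14 ± 0.15 (adjusted p = 0.254), where 1 probe set gave -0.40 and the other 2 gave -0.04 and 0.04. KIF18A, which dampens chromosome oscillation at the metaphase plate, fell by 0.68 (SD 0.40; limma, adjusted p = 0.0232), while KIF18B stood at -0.32 ± 0.22, lower in 8 of 8 lines and not called (0.0546).

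KIF2C, the microtubule depolymerase MCAK, fell by 0.63 (SD 0.41) on 2 probe sets that were both called. KIFC1, the minus-end motor that clusters spindle poles, fell by 0.54 (SD 0.34), and KIF22, a chromokinesin of chromosome arms, fell by 0.46 (SD 0.32). Each of these 3 motors was lower in 8 of 8 lines. KIF22 had -0.58 on a called probe set and -0.35 on the other, which was lower in 7 lines and not called. The motors that push spindle poles apart had small values. KIF11, known as Eg5, stood at -0.21 ± 0.26 (limma, adjusted p = 0.183) and KIF15, which can stand in for it, at -0.18 ± 0.38 (adjusted p = 0.396), above 0 in 3 lines. KIF14, a partner of PRC1 and citron kinase at the midbody, stood at -0.52 ± 0.45 (0.0554), and KIF23, the motor of centralspindlin, at -0.26 ± 0.40 (0.231).

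All 7 spindle proteins were lower in at least 7 lines, against 13.9% of all genes tested. Of the 7, 5 fell, where 4.12% of all genes were called lower, and their median was -0.58. TPX2, which activates Aurora A and seeds spindle microtubules, had -1.40 to 0.42 in 3D (median -0.38), against -0.96 to 0.95 in 2D (median 0.34). H1437 was lowest in both cultures, and 8 of 8 lines were lower in 3D. It fell by 0.67 (SD 0.40; limma, adjusted p = 0.0238). ASPM, a spindle pole protein mutated in primary microcephaly, fell by 0.72 (SD 0.54), and its 3 probe sets, at -0.98, -0.64 and -0.55, were all called. TACC3 fell by 0.65 (SD 0.42) and its partner CKAP5, a microtubule polymerase, by 0.53 (SD 0.34), both in 8 of 8 lines. NUSAP1, a microtubule bundler, fell by 0.40 (SD 0.24), with -0.58 on a called probe set and -0.22 on the other. DLGAP5 and HMMR, both microtubule-binding spindle proteins, stood at -0.56 ± 0.50 and -0.58 ± 0.57 (adjusted p = 0.0570 and 0.0706).

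Cytokinesis genes gave 1 call among 4 measured (4.12% of all genes tested were called lower), with a median of -0.40. A count of 1 in 4 is too small to read as a result about the class. PRC1, the crosslinker of midzone microtubules, had -1.0 to 0.10 in 3D (median -0.23), against -0.46 to 0.73 in 2D (median 0.24). H661 was lowest in 3D and A427 in 2D. It fell by 0.51 (SD 0.37; limma, adjusted p = 0.0391), lower in 8 of 8 lines, with only -0.04 in A427 and -0.07 in A549. RACGAP1, the second subunit of centralspindlin, stood at -0.35 ± 0.26, also lower in 8 lines (adjusted p = 0.0540), and ANLN, the actin and septin scaffold of the ring, at -0.45 ± 0.42 (0.0723). ECT2, the exchange factor that activates RhoA, stood at -0.21 ± 0.38 (0.313), with probe sets at -0.51 (called), -0.25 and 0.12.

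Anaphase regulators had a median of -0.56, and 2 of 4 fell, where 4.12% of all genes tested were called lower. CDC20, the activator of the anaphase-promoting complex, had -2.29 to 0.56 in 3D (median -0.51), against -2.16 to 1.17 in 2D (median 0.23). H1437 was lowest in both cultures, and its own difference was only -0.13. CDC20 fell by 0.78 (SD 0.60; limma, adjusted p = 0.0370), lower in 7 of 8 lines, with -1.57 in H358 and 0.18 in A427. PTTG1 (securin), the inhibitor of separase, fell by 0.48 (SD 0.38; adjusted p = 0.0450). Near-identical copies of PTTG1 exist in the genome, and whether its probe set reads them was not tested. ESPL1 (separase) stood at -0.54 ± 0.52 and the ubiquitin-conjugating enzyme UBE2C at -0.58 ± 0.52 (0.0725 and 0.0576).

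The chromosome proteins most used to score proliferation were not called. MKI67, which encodes the Ki-67 antigen, had -1.71 to 0.38 in 3D (median -0.33), against -0.89 to 1.15 in 2D (median 0.22). Its difference was -0.58 ± 0.55 (limma, adjusted p = 0.0652), from -1.63 in H661 to 0.11 in A549, and its 4 probe sets lay between -0.71, on the only one called, and -0.46. TOP2A, topoisomerase II alpha, stood at -0.45 ± 0.39 (adjusted p = 0.0583), with 1 of 3 probe sets called at -0.72 and the others at -0.34 and -0.30.

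The lines differed widely in the size of the shift. The median over the 41 genes was -0.97 in H661 and -0.93 in H358, followed by -0.66 in H460, -0.49 in H23, -0.36 in A549, -0.32 in H1437, -0.31 in H1703 and 0.06 in A427. Over all genes tested the same medians lay between -0.08 in H661 and 0.04 in H23 and H1437. In H661 20 of the 41 genes were lower by at least 1 (log2), and in H358 17, where 4.88% and 2.78% of all genes tested reached that. H460 had 7 such genes and H23 3, against 1.86% and 2.08% of all genes. A549 and H1703 had 1 each (1.03% and 0.992% of all genes), and H1437 and A427 had 0 (1.74% and 0.475%), counts too small to set apart from those shares. Every one of the 41 genes was below 0 in H358 and in H1437, against 16 in A427. Of all genes tested 47.3% were below 0 in H358, 43.6% in H1437 and 49.8% in A427.

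**Figure D4:**
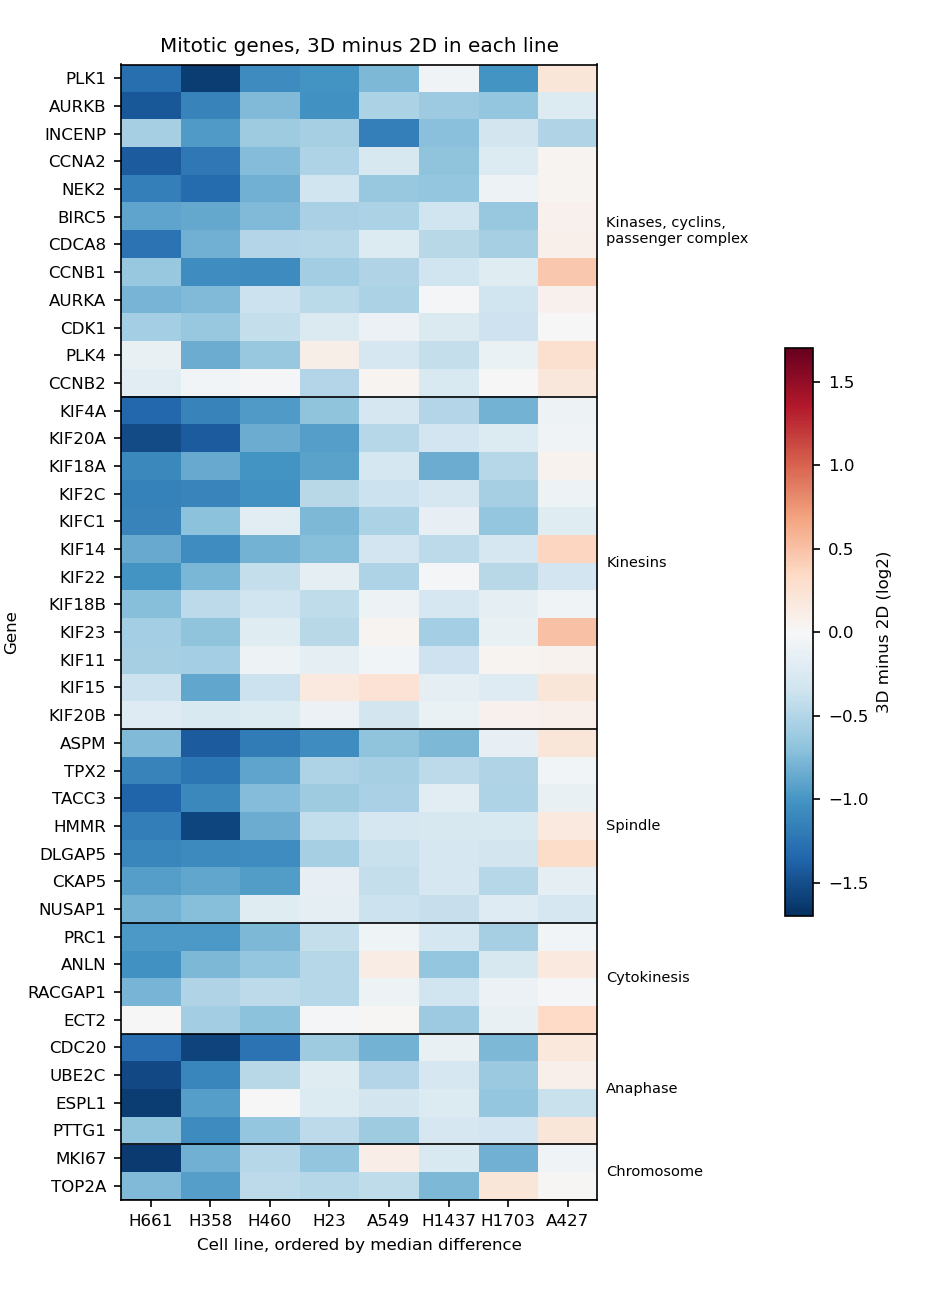
3D minus 2D difference (log2, colour) of the 41 genes by role (rows) in each line (columns, ordered by median). Blue is lower in 3D; H661 and H358 are darkest and A427 is mostly pale or red.

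The genes that led differed from line to line. In H358 the lowest were PLK1 (-1.62), CDC20 (-1.57) and HMMR (-1.56), and in H661 MKI67 (-1.63), ESPL1 (-1.62) and UBE2C (-1.53). H460 was led by CDC20 (-1.25), ASPM (-1.19) and CCNB1 (-1.07), and H23 by ASPM (-1.05), AURKB (-1.03) and PLK1 (-1.01). In H1703 PLK1 stood at -1.02 beside MKI67 at -0.82 and KIF4A at -0.81, whereas TOP2A stood at 0.20. A549 had its lowest value in INCENP (-1.16), then CDC20 (-0.81) and PLK1 (-0.77), and its highest in KIF15 (0.24). H1437 had KIF18A (-0.84), TOP2A (-0.77) and ASPM (-0.77) at the low end, and KIF22 and AURKA (-0.02 each) and PLK1 (-0.06) at the high end. Thus PLK1 was among the 3 lowest genes in 4 lines and among the 3 highest in H1437.

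A427 stood at the other end. KIF23 (0.50), CCNB1 (0.46) and KIF14 (0.37) were its highest, while INCENP (-0.51), ESPL1 (-0.38) and KIF22 (-0.33) were its lowest. It gave the highest difference of the 8 lines for 32 of the 41 genes. H661 gave the lowest for 20 and H358 for 15.

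By role, the class medians followed the same order of lines with some exceptions. The anaphase class ran from -1.42 in H661 to 0.14 in A427, the spindle class from -1.11 in H661 to -0.04 in A427 and the kinase class from -0.91 in H358 to 0.07 in A427. Kinesins ran from -0.94 in H661 to 0.00 in A427, cytokinesis genes from -0.88 in H661 to 0.07 in A427 and chromosome proteins from -1.19 in H661 to -0.02 in A427. In A549 the cytokinesis median was -0.03 while its kinase median was -0.52. In H1703 the anaphase median of -0.65 was the lowest of that line's classes.

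The levels also differed between lines within each culture. The median log2 ratio over the 41 genes lay between -0.94 in H1437 and 0.24 in A427 in 3D, against -0.56 in H1437 and 0.75 in H661 in 2D. H661 and H1703 (0.47) had the highest medians in 2D, and A427 and H1703 (0.12) had the highest in 3D. H358 stood at -0.90 in 3D, close to H1437, although it had 0.15 in 2D. H1437 was lowest in both cultures with a difference of -0.32.

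**Figure D5:**
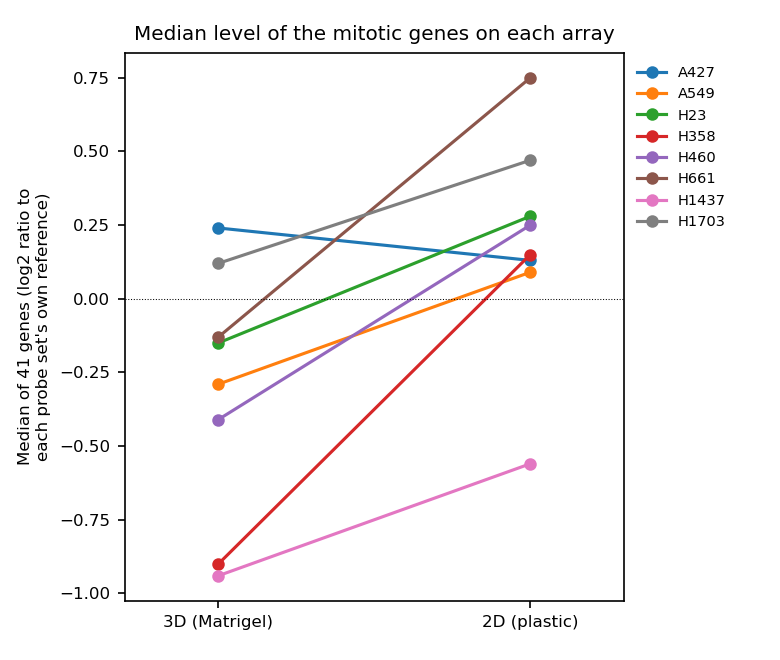
Median log2 ratio of the 41 genes on each of the 16 arrays, 3D left and 2D right, with a line joining the arrays of a cell line. All lines are lower in 3D except A427 (0.24 in 3D, 0.13 in 2D).

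The 41 genes moved together over the lines. The mean Pearson correlation of their differences over the 8 lines was 0.648 across 820 pairs of genes, against 0.0205 across all pairs of tested genes. These points share the same 16 arrays and 8 lines, so the values are a description. INCENP had the least likeness to the others (median r of 0.152), followed by CCNB2 (0.24), ECT2 (0.459) and ESPL1 (0.521). INCENP was the gene with the smallest adjusted p, and its lowest difference was in A549 rather than in H661 or H358.

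Probe sets of the same gene mostly shared the direction. Of 76 probe sets that were not dim, 73 had a mean below 0, and 36 were called lower and 0 higher, where 5.22% of all 27631 probe sets were called lower. Among 23 genes with several such probe sets, 20 had all of them below 0, and the exceptions were CCNB2, ECT2 and KIF20B. The probe sets of 9 genes lay at least 0.3 apart (log2). Of the 28 measured genes with a CHR match in a window 12 were called lower (median -0.52), where 4.12% of all genes tested were. Of the 8 without a match (AURKB, CCNA2, CCNB1, KIF20A, KIF2C, NEK2, PTTG1 and TACC3) 7 were called (median -0.63). The search covered only TTTGAA on either strand and TTCGAA, so a CHR of another form counts as no match. Whether these groups differ was not tested.

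Genes around the same pathway were counted from lists drawn up by function. For each list the share to set beside its count is that of all genes tested, 4.12% called lower and 1.97% higher. Of 17 spindle checkpoint and kinetochore genes 11 fell and 0 rose (median -0.45), among them KNL1, the scaffold of the outer kinetochore, which fell by 0.99 (SD 0.56). Of 25 other spindle and midzone genes 11 fell and 0 rose (median -0.29), led by SKA3, a kinetochore coupler to microtubules, which fell by 1.31 (SD 0.63). Of 14 regulators of mitotic entry 4 fell (median -0.19), including BORA, the Aurora A cofactor in the activation of PLK1, which fell by 0.59 (SD 0.37). Of 16 subunits and partners of the anaphase-promoting complex 3 fell (median -0.12), with UBE2S, its chain-elongating enzyme, at -0.68 and the core subunit CDC27 at -0.38.

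The next 3 lists each gave 1 call, a share near the 4.12% of all genes called lower, so their counts are no result about the lists. Kinesins outside the mitotic set and kinesin partners gave 1 call in 24, KIF26A, which fell by 0.44, and their median was -0.12. Abscission and septin genes gave 1 call in 20, SEPTIN11, which fell by 0.32, with a median of 0.02. Of 16 genes of the DREAM, B-MYB and FOXM1 regulators 1 fell, FOXM1, the forkhead factor that drives G2 and M genes, by 0.78 (SD 0.48; limma, adjusted p = 0.0254), and MYBL2 (B-MYB) stood at -0.66 ± 0.59 (0.0546). Of 20 replication genes, expressed earlier in the cycle, 12 fell and 0 rose (median -0.50), among them GINS4, a subunit of the replicative helicase, which fell by 1.02 (SD 0.42). Whether these lists differ from the mitotic genes was not tested.

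Technical measures moved with culture as well. The 18S rRNA control probe sets were lower in 3D in 8 of 8 lines, by a mean of -1.15 ± 1.06, from -3.45 in H23 to -0.08 in H1437. This difference was -1.23 in H661, -0.81 in H358, -1.61 in H460 and -3.45 in H23, beside mitotic medians of -0.97, -0.93, -0.66 and -0.49. In A549, H1437, H1703 and A427 it was -0.98, -0.08, -0.94 and -0.13, beside mitotic medians of -0.36, -0.32, -0.31 and 0.06. Because the 18S control was lower in 3D in every line, the fit with it as a covariate could not fully part it from culture. The part of the 18S level in the results was not tested further. GAPDH control probe sets differed by 0.02 to 0.36 and ACTB control probe sets by -0.42 to 0.04. The 3′ minus 5′ difference of the ACTB control probe sets, a sign of RNA quality, was higher in 3D in 6 of 8 lines, from -0.07 in H23 to 0.34 in H1703, with 0.17 in H358 and 0.02 in H661, and its part in the results was not tested. Of the marker lists 0 genes were called, among 6 leukocyte, 6 fibroblast, 2 endothelial and 6 epithelial genes that were not dim. An unadjusted p under 0.05 (limma) was found for 2, 0, 0 and 0 of them, and for 3524 of the 14113 genes tested. The summed level of the markers cannot be formed from ratios. The median ratio of the leukocyte markers lay between -0.05 and 0.18 on 3D arrays and between -0.15 and 0.15 on 2D arrays, and that of the fibroblast markers between -0.20 and 1.58 in 3D and between -0.22 and 1.55 in 2D. The endothelial markers lay between -0.23 and 0.31 in 3D and between -0.29 and 0.25 in 2D, and the epithelial markers between -5.01 and 5.65 in 3D and between -4.94 and 5.11 in 2D. The other 4 endothelial and 2 leukocyte markers had no probe set that was not dim. Because the references differ between genes, the lines' identity as epithelial cells could not be read from a level, and the part of other cells in the results was not tested.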

How the data were processed

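RNA of 8 cell lines in 2 cultures was labelled with biotin and hybridised to Affymetrix U133 Plus 2.0 arrays from 200 ng of total RNA, per the labels' protocols. The deposited values are log2 ratios. In 63.5% of probe sets the median of the 16 linear values was 1 (within 0.001 on the log2 scale), so their reference is their own median. The others, whose median lies under 1, were left out and are named dim here. No intensity was given, so whether their signal was low was not tested. The software, the probe summary and any step that made arrays comparable were not given in the sources used here, and the labels name no extraction or scan batch. Array medians lay between -0.28 and -0.07.

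Gene symbols came from the platform's annotation (41097 probe sets with 1 symbol, 1801 with several, 11777 with none), updated through the RefSeq gene table of GRCh38.p14. A gene was the mean of its probe sets that were not dim, since a ratio holds no level by which to pick 1 of them. The fit over 14113 genes used limma 3.58.1 in R 4.3.3 with the cell line as a block and a variance trend, two-sided, with Benjamini-Hochberg adjustment. Arrays were paired by the cell line in the labels. Nothing in the labels says that cultures were independent beyond the line, so p-values measure the spread over lines. Errors are SDs over 8 lines. On simulated data with these genes and pairs, 66.0% of genes changed 1.5-fold, 90.0% of those changed 2-fold and 96.0% of those changed 3-fold were recovered.

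The 42 genes, their role classes and the other lists were chosen with earlier results of these data known, so they carry no test of their own. Named genes were all members, the 3 genes of smallest p in each other list (a part of them is printed) and the 3 lowest and highest members of each line (also printed in part). Alternatives were the highest-mean probe set, single probe sets, no dim filter, no probe sets of suffix s or x, no variance trend, median centring, quantile normalisation, no line block, an 18S covariate and leaving out each line.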

Additional observations from a re-analysis of the deposited data

Results flagged for a closer look

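Among 130 sets of 8 values, 5 held a line far from the other 7. Chance flags about 1 set in 20, so this count is not above chance and the values below are a description. In 3D, BIRC5 stood at 0.54 in A427, above the other lines at -0.52 to -0.03, and MKI67 stood at -1.71 in H358, below the others at -0.48 to 0.38. In 2D, H1437 was far below the rest for CCNB1 (-1.39, the others at -0.11 to 0.38), PTTG1 (-1.14, the others at -0.02 to 0.57) and KIF20A (-1.09, the others at -0.02 to 0.93).

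The median 3D minus 2D difference of the mitotic genes was 0.06 in A427 and between -0.97 and -0.31 in the other 7 lines. With 1 array per line and culture this opposite sign was not tested.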

How the results depend on the processing

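The median of the mitotic genes stayed below 0 under every alternative run, and so did every class median. The count of 21 genes called was within 1.5 times of itself with the highest-mean probe set (18, and 849 of all genes), no variance trend (20 and 726), median centring (24 and 972), quantile normalisation (20 and 705) and single probe sets (28 genes with 1 or more called). It was 6 with no filter on dim probe sets (333 of all genes, against 860), 12 of the 30 genes still measured when suffixes s and x were dropped (648 of all 11305 genes), and 0 with the 18S covariate (0 of all genes). Without the replicate block on the cell line it was 0 (1 of all genes). In that fit 12 of the 41 genes and 384 of all genes had an unadjusted p under 0.05 (limma). Leaving out 1 line at a time gave 1 to 32 mitotic genes called and 17 to 980 of all genes. Tested singly, 2260 probe sets were called. CCNB2 turned to 0.29 with the highest-mean probe set and to 0.06 with the 18S covariate, and ECT2 to 0.12 with the highest-mean probe set and to 0.12 without suffixes s or x. These are single probe sets of genes whose probe sets disagree, except for the covariate, for which the cause was not tested. Of 645 values of single genes under these alternatives, 447 kept their side of the threshold and direction, 176 lost a call and 18 gained one. Signal over background is not given, so what it limits is unknown.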
